A study of Mus musculus with 8 samples.

Results

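A total of 411 promoter sites of the mouse genome carried a peak in every one of 8 chromatin immunoprecipitation sequencing (ChIP-seq) lists, whichever protein was precipitated and whether cells were pluripotent or had received retinoic acid. The sites were chosen by the measured peaks themselves. Overlapping peaks of the 8 lists on chromosomes 1 to 19 and X were merged, and a merged site was kept where a peak of each list was present and where it covered at least 20 bp of the 1000 bp on either side of an annotated transcript start. This left 411 of 26603 promoter sites and of 89526 merged sites in all. Presence in all lists is therefore a property of the selection, and the peak strengths given below describe the sites without testing them.

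The study used E14Tg2a, a line of mouse embryonic stem cells, between passages 37 and 40. Pluripotent cells (ESCs) grew with leukemia inhibitory factor (LIF). Neuronal cells (NCs) were monolayers without LIF that received 1 µM retinoic acid (RA) for 48 h, so that loss of LIF and gain of RA cannot be told apart. FGFR1, RXR and Nur77 were precipitated from both states and H3.3 from NCs alone. There were 2 libraries of FGFR1 in NCs, called replicates 1 and 2 here, and each other group had 1 library made from pooled plates of this single line. The title of replicate 2 ends in Exp2, and the study describes it as an additional ChIP-seq experiment. The labels do not say whether it came from a separate culture. An SD between the 2 libraries therefore includes any difference between the experiments. A peak list does not measure expression, so the cell states were taken from the labels.

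FGFR1 is a receptor tyrosine kinase for fibroblast growth factors that is also found in the nucleus. RXR is the common partner of many nuclear receptors, among them the retinoic acid receptors, and Nur77 (Nr4a1) is an orphan nuclear receptor that is quickly induced by many stimuli. H3.3 is the histone H3 variant that is placed into chromatin outside replication, and it is known to gather at active promoters. Most promoters of housekeeping genes in mammals lie in CpG islands, stretches rich in CG dinucleotides where chromatin is open, and factors such as NRF1, ETS proteins and CREB recognise short words there.

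The sites that follow show the words found most often relative to other promoters. Each line gives bases of the plus strand of GRCm38 from the 5′ end, and capitals mark the word. Words on the minus strand appear as their reverse complement. The first group holds the NRF1 word (CGCANGCGC) and consists of members that ranked high over the 8 lists (Wrb has a sequence copy elsewhere in the assembly).
Wrb, chr16:96145334-96145363: gactgcagtgCGCAGGCGCagttgacgacg
Clk4, chr11:51263098-51263127: ggcttcgtgaCGCATGCGCgctggctcggc
Zc3h8, chr2:128944080-128944109: agccctaccaCGCATGCGCagttctcaccg
Immt, chr6:71831311-71831340: ggaggaggcgGCGCGTGCGcagtggtgccg
Members with the cyclic AMP response element (CRE, TGACGTCA), the site bound by CREB, are shown next.
4930471M09Rik, chr6:91440928-91440957: gcgcggttacaTGACGTCAtcctgaggcgc
Psmb2, chr4:126677596-126677625: ctcgcgagaggTGACGTCAttgggccgcgc
Clcn3, chr8:60983283-60983312: tcgcacgcgcgTGACGTCAgcgcgttgacg
The ETS word (CCGGAAG) is shown at 2 more members.
Polg2, chr11:106779549-106779578: agaccacgcccCCGGAAGagcgtcacccgc
Romo1, chr2:156144184-156144213: tgcgctgtgctCCGGAAGcgatcccacgga
Longer stretches of 100 bases round the median summit, free of annotated exons, are given for Cep295 and Rab3gap2, where NRF1 words and an E-box (CACGTG, the site of basic helix-loop-helix factors) stood side by side. All of the capitals in them belong to these words.
Cep295, chr9:15357831-15357930: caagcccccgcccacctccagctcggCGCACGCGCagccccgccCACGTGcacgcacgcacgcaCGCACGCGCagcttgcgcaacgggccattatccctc
Rab3gap2, chr1:185203991-185204090: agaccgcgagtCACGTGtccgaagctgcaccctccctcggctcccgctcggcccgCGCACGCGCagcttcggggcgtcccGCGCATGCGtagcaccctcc

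Depth was inferred from the deposited values, since the lists give no read totals and the study's command names no control library. Whether the members would also stand out in chromatin sequenced without an antibody was not tested. The genome-wide background ranged from 1.27 fragments per kb (H3.3) to 7.09 (RXR in ESCs), and the lists held 10634 to 46137 peaks. FGFR1 replicate 2 stood apart. Its peaks had a median width of 311 bp against 89 to 140 bp in the other lists, and a median of 27 fragments at the summit against 9 to 12. Without this library, 499 promoter sites carried a peak in all remaining lists, and 381 of the 411 members were among them.

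Sites became rarer with each further list. Of the promoter sites, 12326 had a peak in 1 list alone, 1212 in 6 lists, 847 in 7 and 411 (1.54%) in 8. Promoters made up 22.1% of the merged sites found in 1 list and 87.8% of the 468 sites found in 8. That share did not climb evenly, because it stood at 37.4% for sites in 7 lists. The 847 promoter sites that came 1 list short most often lacked H3.3 (248 sites, 29.3%) or FGFR1 in ESCs (189 sites, 22.3%), the 2 shortest lists. They seldom lacked RXR in ESCs (12 sites) or FGFR1 replicate 1 (3 sites), the 2 longest.

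**Figure D1:**
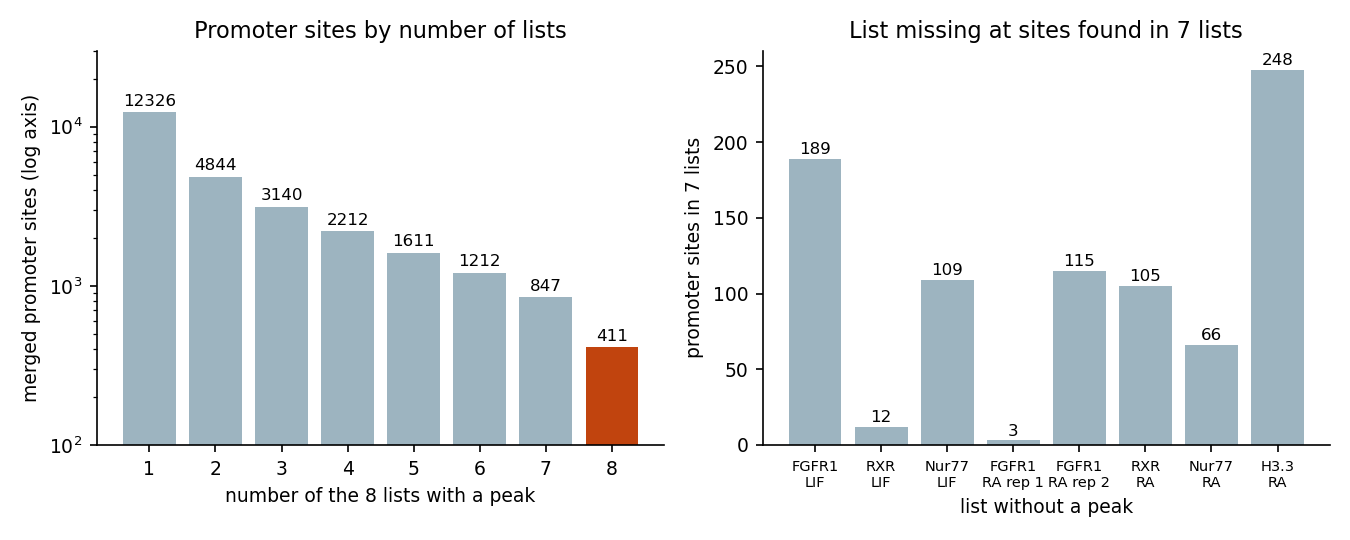
Left, number of merged promoter sites (log axis) by how many of the 8 lists had a peak there, with the 411 members in red. Right, for the 847 promoter sites found in 7 lists, the list without a peak: H3.3 was missing at 248 and FGFR1 replicate 1 at 3.

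The members spanned 178 to 1901 bp, with a median of 553 bp. In 182 of them each list contributed a single peak, and 3808 peaks lay in the members altogether. Since merging chains overlapping peaks, the 8 peaks of a site need not share a base. At 254 members they did. At the edge of the promoter window, the member with the least overlap was the site at Angptl6, with 21 bp inside the window, and the nearest excluded site with all 8 lists lay 1304 bp from a start on chromosome 11. The weakest peaks that sufficed for membership had −log10 p of 5.20 at Itgav and 5.22 at Tbk1, both for Nur77 in ESCs, beside the authors' limit at p of 1e-05. Among excluded sites, the one at Fam149b had a median percentile of 99.9 over its 7 lists and lacked a peak of FGFR1 replicate 2.

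Membership did not mean a strong peak in every list. Strength is given as −log10 p at the summit and as a percentile within its list, where 100 is the strongest peak. The members' median percentile was 93.0 in FGFR1 replicate 1, 81.3 in FGFR1 replicate 2 and 79.2 for RXR in ESCs. It was close to the middle of the list for FGFR1 in ESCs (52.7), H3.3 (52.6) and RXR in NCs (56.0). For Nur77 it was 62.5 in ESCs and 66.7 in NCs. A percentile also depends on how many weak peaks a list holds. FGFR1 replicate 1 and RXR in ESCs were the longest lists, with 46137 and 30586 peaks, while H3.3 had 10634, FGFR1 in ESCs 11378 and RXR in NCs 15224. The head of each list gave another order, because 34 of the 100 strongest promoter sites of H3.3 were members, 31 of FGFR1 replicate 1 and 9 of FGFR1 replicate 2.

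In −log10 p, the members' median exceeded that of all promoter sites of the same list in every library. In ESCs, FGFR1 had 12.2 against 10.6, RXR 13.7 against 10.1 and Nur77 11.4 against 9.72. In NCs the FGFR1 replicates had 22.8 against 11.9 and 37.7 against 22.0, RXR 11.6 against 9.80, Nur77 12.7 against 10.1 and H3.3 11.4 against 9.81. A site that must pass in 8 lists is bound to be stronger on average, and these values only describe the selection. A percentile above 50 in all 8 lists was found at 45 members, and 4 lay in the top 10% of all 8. The median of the lowest percentile per member was 17.5. H3.3, the shortest list, gave the lowest percentile at 109 members, and FGFR1 replicate 1, the longest, gave the highest at 243, so these counts cannot be told apart from list length.

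**Figure D2:**
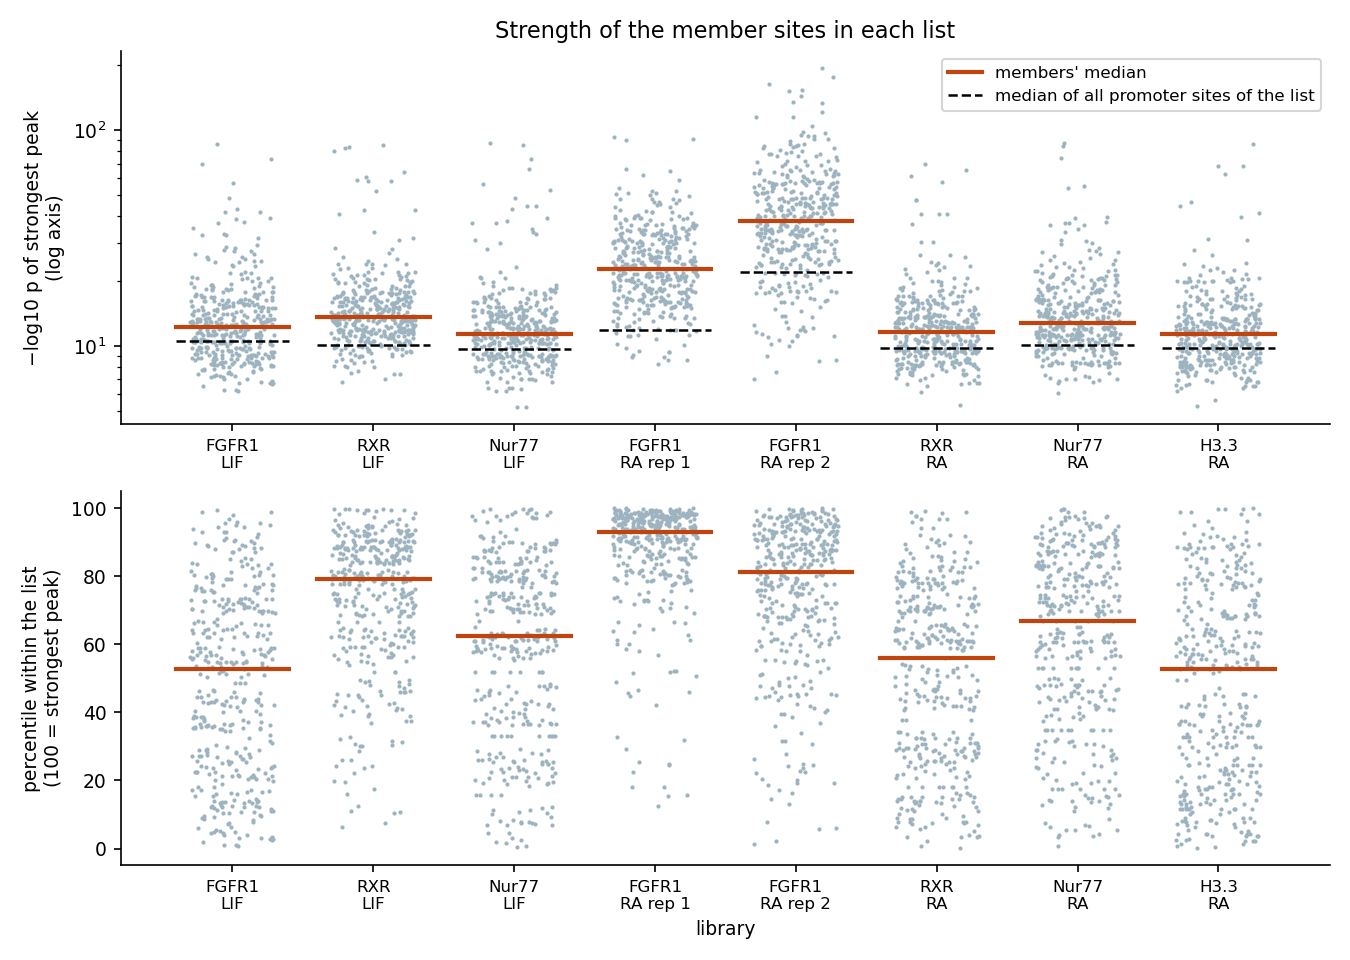
Each point is 1 of the 411 members, shown with its −log10 p (upper panel, log axis) and its percentile within the list (lower panel) in each library. Red lines are the members' medians and dashed lines the medians of all promoter sites in that list. Members crowd near the top of FGFR1 replicate 1 (median 93.0) and spread over the whole range of H3.3 (median 52.6), the longest and the shortest list.

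The order of the members differed between libraries. Over the 411 members, Spearman's rho between the levels of 2 lists (summit fragments divided by the fragments expected from the genome-wide background) ran from 0.088 for FGFR1 replicate 2 with RXR in NCs to 0.499 for FGFR1 replicate 1 with H3.3. The 2 FGFR1 replicates reached 0.348, RXR reached 0.374 between ESCs and NCs, and Nur77 reached 0.352. These are descriptions across sites, which share libraries and base composition. The same antibody in a second library thus ordered the members no more alike than different antibodies did in some pairs.

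The highest ranks were not occupied by typical promoters. At the head of the ranking by median percentile stood a site of 791 bp in an intron of Sfi1, a gene for a centrosome protein (chr11:3192813-3193603). In ESCs FGFR1 had 89 summit fragments there, RXR 132 and Nur77 125. In NCs the FGFR1 replicates had 110 and 185, RXR 85, Nur77 114 and H3.3 91. All 8 values were several times the usual summit count of their list. This member was the strongest of all members in FGFR1 replicate 1, RXR, Nur77 and H3.3 of NCs.

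Gm10800, a predicted gene on chromosome 2, came next with 103, 116 and 106 summit fragments in ESCs for FGFR1, RXR and Nur77. In NCs the FGFR1 replicates had 98 and 182, RXR 85, Nur77 102 and H3.3 78. Soft-masked repeats made up 95.2% of the 500 bp round its summit. It was the strongest member for RXR and for Nur77 in ESCs. Mir6236, a microRNA gene on chromosome 9, was the strongest member for FGFR1 in ESCs with 66 fragments, and its lowest count was 18, for H3.3. The remaining places among the highest 10 belonged to Gm27940, Gm10722, CT010467.1, further sites at Sfi1 (2) and sites at Gm26917 (2). Those at Gm26917 and CT010467.1 lay side by side on chromosome 17 and reached 138 to 305 summit fragments in each library. Their deposited fold over the local background was only 2.52 to 4.75, whereas the median fold of the lists was 6.61 to 8.21. CT010467.1 is annotated as a ribosomal RNA gene and Gm26917 as a long noncoding RNA gene.

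Sequence copies accompanied this ranking. The 300 bp round the median summit had a further match over at least 80% of their length elsewhere in GRCm38 for 34 of the 411 members (8.27%, exact 95% interval 5.80 to 11.4). Among the highest 20 members it was 12, and among the other 391 it was 22 (5.63%). Promoter sites in 7 lists had such a match at 43 of 847 (5.08%, interval 3.70 to 6.78), and this interval overlapped that of the members. Among the highest 20 of those sites it was 4. The search covers only copies that the assembly holds, and it found none for the sites at Gm26917 and CT010467.1. All 7 members with more than 50% repeat bases were among the highest 20. The authors kept only uniquely aligned reads, and what part copies or repeats had in the strength of these peaks was not tested. Without the 34 sites, the ratios between NCs and ESCs, the share of sites with a word and the share with summits close together stayed within the intervals given below.

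Promoters of well-known genes followed. Hist4h4, a gene for histone H4 at rank 16, was the strongest member in FGFR1 replicate 2, with −log10 p of 194. In ESCs FGFR1 had 48.4, RXR 18.3 and Nur77 30.9. In NCs FGFR1 replicate 1 had 66.4, RXR 24.2, Nur77 14.4 and H3.3 22.9. Its summit lay in the coding sequence of this short gene, 292 bp behind the start. Psmb2, a subunit of the proteasome core, ranked 29 and had −log10 p of 16.8, 19.6 and 11.4 in ESCs for FGFR1, RXR and Nur77. In NCs the FGFR1 replicates had 42.5 and 86.4, RXR 14.3, Nur77 24.0 and H3.3 17.9. No list had Psmb2 below percentile 62.8, and all 8 summits fell within 24 bp, 2 bp from the start by their median and near the CRE printed above.

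The members lay on starts. The median summit over the 8 lists was within 100 bp of the start of the named gene at 306 members (74.5%, interval 69.9 to 78.6) and within 200 bp at 368. Its median position was 6 bp downstream. By annotation, 184 median summits lay in untranslated exons, 89 outside genes, 67 in coding sequence, 46 in introns and 25 in exons of noncoding genes. The rule asked only that a site overlap the 1000 bp on either side of a start, and it set no limit on the summit. At Angptl6 the summits lay 1224 to 1586 bp downstream. The named gene was the one with the nearest start, protein-coding genes first. How much of the closeness came from these choices was not tested, and no share was computed for other promoter sites.

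Each library on its own showed the same centring. The median summit position ran from 1 bp downstream of the start for Nur77 in NCs to 20 bp for FGFR1 in ESCs. Between 58.4% (Nur77 in NCs) and 69.1% (FGFR1 replicate 1) of the summits fell within 100 bp of the start. The summits did not coincide base by base, however. The 8 summits of a site spanned 5 bp at the least, 226 bp in the median and 1387 bp at the most, and they fell within 100 bp at 69 members (16.8%, interval 13.3 to 20.8). FGFR1 replicate 2, with its wide peaks, lay farthest from the rest, at a median of 61 bp from the middle of the other 7 summits, and FGFR1 replicate 1 lay nearest, at 30 bp. Without replicate 2 the share of sites with all summits within 100 bp was 36.5%.

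**Figure D3:**
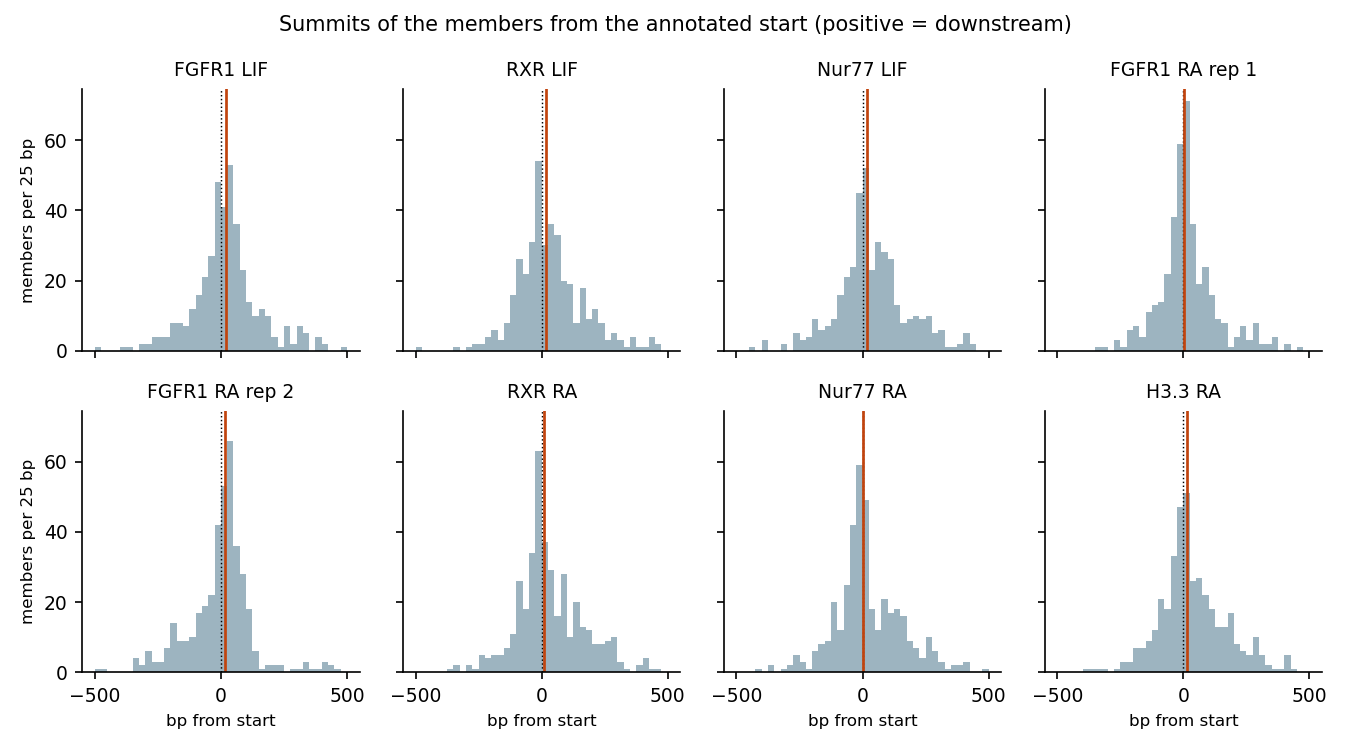
Position of the strongest summit of each member from the annotated start, per library, in bins of 25 bp with positive values downstream. The dotted line marks the start and the red line the median, which lay between 1 and 20 bp in all libraries. The axis is limited to 500 bp on either side, which holds 394 to 398 of the 411 members.

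The sites were rich in CG dinucleotides. In 500 bp round the median summit the members had a median GC content of 66.8% and a median ratio of observed to expected CpG of 0.890. Sites in 7 lists had 66.8% and 0.874, those in 4 to 6 lists 66.0% and 0.832, those in 2 or 3 lists 63.6% and 0.753 and those in 1 list 59.2% and 0.586. The 57 sites in all 8 lists outside promoters had 54.8% and 0.672, with a median repeat share of 16.6% against 4.2% in the members. Tracts of at least 20 bp of alternating purine and pyrimidine bases were found at 10 members (2.43%), 11.2% of the promoter sites in 7 lists and 22.8% of the 57 sites outside promoters.

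Of the 15 sequence words searched on both strands in 100 bp round the median summit, that of NRF1, a factor of nuclear genes for mitochondrial and other housekeeping proteins, had the largest difference in percentage points between members and the sites in 1 list. It occurred at 96 members (23.4%, interval 19.4 to 27.8). Its share was 15.6% in promoter sites with 7 lists, 8.88% with 4 to 6, 4.35% with 2 or 3 and 2.14% with 1. It was 1.22% in the members' own flanks 400 bp away and 3.05% round the starts of protein-coding transcripts. The intervals of the members and of the sites in 7 lists were apart.

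The ETS word occurred at 38 members (9.25%), against 5.90% of sites in 7 lists and 2.03% in 1 list. The CRE occurred at 21 members (5.11%), against 4.37% and 0.45%. For the E-box it was 40 members (9.73%), against 6.85% and 3.93%. In protein-coding starts these 3 words had shares of 5.25%, 0.81% and 2.49%. The YY1 word (AAGATGGCG) was found at 6 members (1.46%), against 2.48% of sites in 7 lists, 0.53% in 1 list and 1.35% of the starts. At least 1 of the NRF1, ETS, CRE and YY1 words was present at 148 members (36%), 26.3% of sites in 7 lists and 4.93% of sites in 1 list.

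The remaining words showed other patterns. The GC box (GGGCGG), bound by Sp1 and its relatives, occurred at 125 members (30.4%), 31.4% of sites in 7 lists and 30.7% in 4 to 6, and it fell to 26.7% in 2 or 3 lists and 19.8% in 1 list. The CCAAT box (CCAAT) was found at 21 members (5.11%), less than the 11.2% round protein-coding starts. Promoter sites in 7 lists had 4.25% and those in 1 list 6.94%, so the low share was not particular to the members. The core word of nuclear receptors (AGGTCA), found in the words that RXR partners read, occurred at 15 members (3.65%, interval 2.06 to 5.95), against 5.11% in their flanks and 4.67% round starts. The Nur77 word NBRE (AAAGGTCA), which contains the core word, occurred at 1 member. The words of ZBTB33 (CTCGCGAG) and AP-1 (TGANTCA) were each found at 1 member, and the TATA box (TATAAA) and the CTCF motif at 2 each. The words of ZNF143 (CTACAANTC) and the octamer (ATGCAAAT) were found at 0 of 411 members, which allows a share of up to 0.894%. These words were also rare in promoter sites of 7 lists, so no shortage at the members is read. The shares there were 0.12% for NBRE, the TATA box and ZNF143, 0.35% for ZBTB33, 0.71% for AP-1 and CTCF and 0% for the octamer. At 153 members none of the 15 words was present. These are matches of letters and do not show binding.

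**Figure D4:**
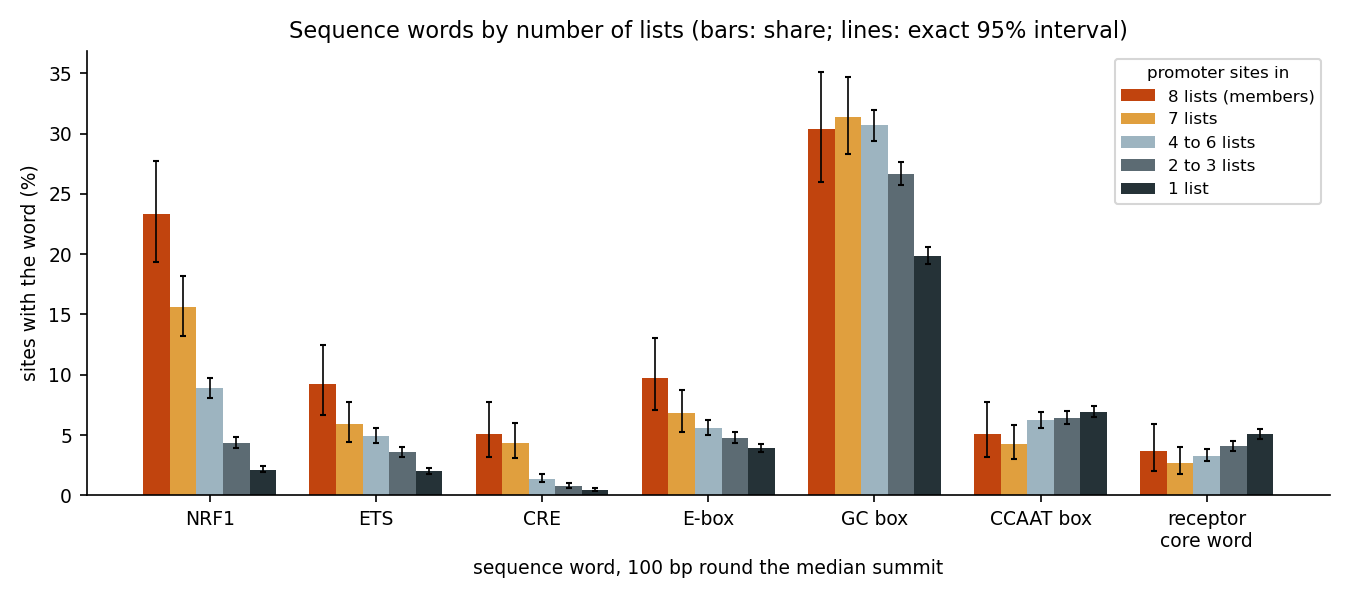
Percent of promoter sites with a sequence word in 100 bp round the median summit, for members (8 lists) and for sites in 7, 4 to 6, 2 to 3 and 1 list, with exact 95% intervals as lines. The NRF1 word falls from 23.4% in members to 2.14% in sites of 1 list, whereas the GC box is near 30% from 8 down to 4 to 6 lists and 19.8% in 1 list, and the receptor word shows no such fall.

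The median summit was taken over 8 lists at the members and over fewer at the other sites. The words were therefore also counted at the summit of each list alone, comparing the members with all other promoter sites of that list. The NRF1 word was present at 14.6% to 26.8% of the members and at 4.60% to 8.97% of the others, a ratio of 2.31 (FGFR1 in ESCs) to 3.91 (RXR in ESCs), with intervals apart in 8 of 8 lists. For the ETS word the intervals were apart in 7 lists, for the CRE in 6 and for the E-box in 5. For the receptor core word they overlapped in all 8, with ratios of 0.775 to 1.11. The same members entered all 8 comparisons, so the counts of lists are not independent repeats. The NRF1, ETS, CRE and E-box words each contain CG. Sites in fewer lists had lower ratios of observed to expected CpG, and this difference was not adjusted for. Round the annotated start, where no summit enters, 20.7% of members and 13.1% of sites in 7 lists had the NRF1 word, and 2.69% of sites in 1 list.

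At the 96 members with an NRF1 word, the median distance of the summit from it was 17 bp in FGFR1 replicate 1, 16.5 bp for RXR and 17.5 bp for Nur77 in NCs and 21.5 bp for H3.3. It was 39 to 45 bp in the 3 lists from ESCs and 58 bp in FGFR1 replicate 2. These sites were picked for a word within 50 bp of the median summit. Over all members, with no word involved, the distance from the middle of the other summits had a like order, from 30 bp in FGFR1 replicate 1 and 36 to 37 bp in the other 3 lists from NCs to 39 to 49 bp in ESCs and 61 bp in FGFR1 replicate 2, so nothing is read from the order at the words.

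Strength by word went in both directions. Members with the NRF1 word had a median percentile of 77.4 for Nur77 in NCs, against 62.1 without it, and 63.9 against 50.6 for RXR in NCs. In ESCs the order was the opposite for Nur77 (58.1 against 63.3), and RXR with the word had 73.4, below the 79.2 of all members. The 38 members with the ETS word had a percentile of 35.3 for H3.3 against 53.4 without it, and the 40 with the E-box had 38.3 for FGFR1 in ESCs against 53.3. Other lists went the other way, such as FGFR1 replicate 2 for the ETS word (85.6 against 81.1) and Nur77 in NCs for the E-box (74.1 against 64.4). The 21 members with a CRE had a percentile of 97.5 in FGFR1 replicate 1, against 92.4 without it, but 44.6 against 52.9 for FGFR1 in ESCs. No test was made of these differences.

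RA and LIF were compared at the members by the level, the summit fragments over the genome-wide background, as a log2 ratio. The median ratio was 0.46 for FGFR1 (interval 0.38 to 0.53), 0.75 for RXR (0.71 to 0.80) and 0.30 for Nur77 (0.24 to 0.34). All promoter sites with peaks in both states gave nearly the same medians, 0.42, 0.80 and 0.30. For FGFR1 the 2 NC libraries disagreed in size, with medians of 0.73 and 0.20, and the median SD between them at a member was 0.50, larger than the median ratio itself. Both replicates lay above ESCs at 236 members and both below at 23. RXR and Nur77 had 1 library per state, and their ratios have no replicate check. The intervals here and above cover counting or sampling of sites only.

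Past 2-fold (for FGFR1 in both replicates), 19 members (4.62%) were higher in NCs for FGFR1, beside a background of 4.21% of promoter sites, and 0 were lower, beside 0.116%. For RXR, 117 members (28.5%) were higher, beside 33.3% of promoter sites, and 0 were lower, beside 0%. A count of 0 of 411 allows up to 0.894%. Each of these sites had to have a called peak in both states, which limits how low a level can be. The counts of 0 therefore say little about a fall. For Nur77, 36 members (8.76%) were higher, beside 6.01%, and 1 was lower, beside 0.432%. These shares were near the background, and they are no result about the members. The RXR library from NCs was the shallower of its pair (1.87 against 7.09 background fragments per kb). With the deposited fold in place of the level the RXR median was −0.10, and centred on all promoter sites it was −0.05, so its direction depended on the scale.

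Single members departed from the median. For FGFR1 the highest ratios were 2.01 ± 0.29 (SD, n = 2) at Asah1, the gene of acid ceramidase, and 1.88 ± 0.10 (SD, n = 2) at 4930471M09Rik. Asah1 had 6 summit fragments in ESCs and 27 and 70 in the NC replicates, and 4930471M09Rik had 8, and 30 and 94. In both, each replicate was above ESCs. The lowest ratios were −1.39 ± 1.29 (SD, n = 2) at Mir6236 and −1.31 ± 0.62 (SD, n = 2) at Dis3l, a cytoplasmic exonuclease. For RXR the ratio was highest at Eif2b1 (2.01), a translation factor subunit, and at Vamp3 (1.87), and lowest at Snhg15 (−0.67) and Gm10717 (−0.42). For Nur77 it was highest at Cog6 (1.74) and Pls1 (1.63) and lowest at Ptpdc1 (−1.11) and Azi2 (−0.81). Asah1, Vamp3 and Gm10717 were among the members with a sequence copy elsewhere. Ratios at single sites can rest on few fragments. At Eif2b1 RXR had 11 in ESCs and 17 in NCs, and at Cog6 Nur77 had 7 and 19.

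On the scale of the level, the 10 members of highest rank all had FGFR1 ratios below 0, from −1.39 to −0.17, while 334 of all 411 members were above 0. For RXR all 10 were above 0 on this scale, and for Nur77 9 of 10. With the deposited fold, an alternative chosen after seeing the data, 6 of the 10 were below 0 for FGFR1, with a range of −0.47 to 0.20. On that scale 7 of 10 were above 0 for RXR and 8 of 10 for Nur77, so the FGFR1 direction at these sites depended on the scale. The FGFR1 replicates differed widely at these sites. In the level, both were below ESCs at Mir6236, Gm10722, Gm10800 and the 3 sites on chromosome 17, while replicate 1 was above ESCs at Gm27940 and at the Sfi1 sites.

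**Figure D5:**
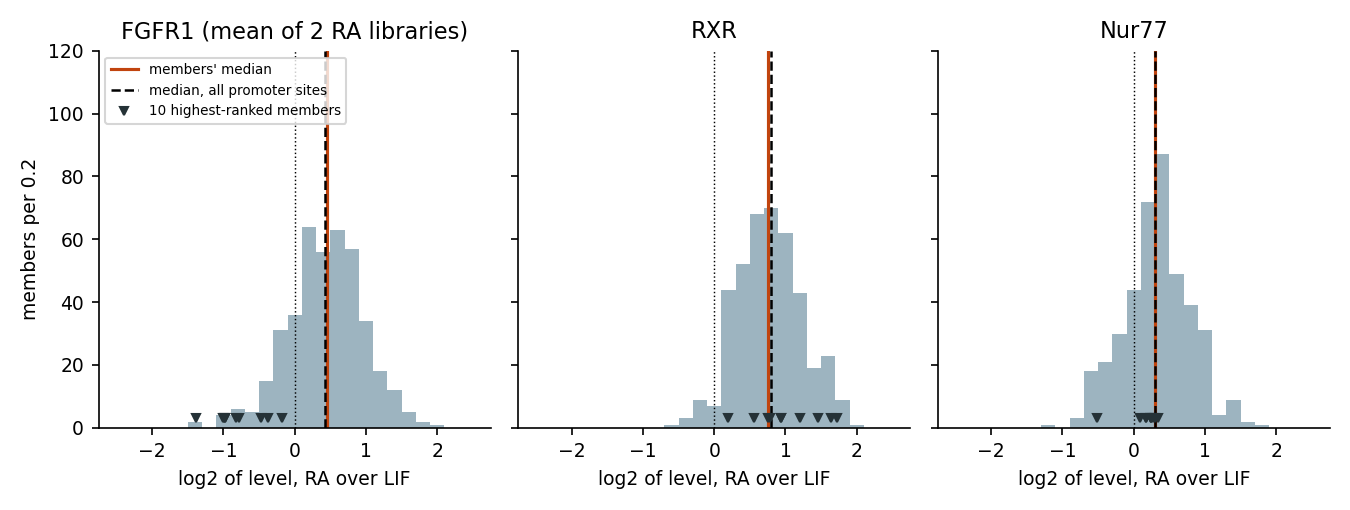
Number of members by log2 ratio of the level in NCs over ESCs, in bins of 0.2, for FGFR1 (mean of 2 NC libraries), RXR and Nur77. Red lines are the members' medians (0.46, 0.75 and 0.30), dashed lines those of all promoter sites with peaks in both states, and triangles the 10 members of highest rank, all below 0 for FGFR1 on this scale (6 of 10 with the deposited fold).

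A total of 469 protein-coding genes, 2.16% of the 21728 annotated, had a start within 1000 bp of a member, and 73 members had 2 or more of them. Starts on both strands were found at 29.7% of the members, against 23% of promoter sites in 7 lists and 14.6% in 1 list. With protein-coding genes alone the shares were 15.6%, 10.3% and 5.46%. The members had a median width of 553 bp, against 109 bp for sites in 1 list, and width was not taken into account. Several members lay near the starts of a pair of genes. Examples are Eif2b1 with Gtf2h3 (a subunit of the transcription and repair factor TFIIH) and Orc3 (origin recognition) with Rars2 (a mitochondrial arginyl-tRNA synthetase). Fau with Mrpl49 and Ccdc127 with Sdha are others.

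By gene list, members were spread thinly over basic functions. Among genes of RNA polymerases and general transcription factors, 7 of 104 had a member: Gtf2h1, Gtf2h3 and Gtf2h5 of TFIIH, Med17 and Med28 of Mediator, Polr3k and Taf15. Mitochondrial ribosomal proteins had 5 of 78, the respiratory chain 5 of 103 (with Sdha of complex II and Cox4i1 of complex IV), splicing proteins 4 of 65, ubiquitin-conjugating enzymes 3 of 37, the proteasome 3 of 50 (Psmb2, Psmd12 and Psme3) and translation factors 3 of 67. There were 2 of 34 tRNA synthetases, 2 of 51 replication genes, 2 of 81 chaperones, 1 of 67 histone genes, 1 of 15 small nucleolar RNA hosts (Snhg15) and 9 of 394 zinc finger genes. The interval of the polymerase list, 1 of 24 examined, was 2.75% to 13.4%, and those of the other lists in this paragraph included the 2.16% of all genes. Nearly all polymerase list genes had a promoter site in some list (102 of 104), against 66.0% of all genes. Among genes with such a site the share with a member was 6.86% (interval 2.80 to 13.6) in the polymerase list and 3.27% in all genes, inside that interval.

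Cytosolic ribosomal protein genes had no member. Of 83 genes, 82 had a promoter peak in at least 1 list, yet 0 had a member, which allows a share of up to 4.35%, above that of all genes. The best site of a gene was in 1 list at 13 genes, in 2 at 16, in 3 at 16, in 4 at 11, in 5 at 13 and in 6 at 3. It reached 7 lists at 10 genes (against 4.05% of all protein-coding genes). Of those 10, Rpl3, Rpl14, Rpl15, Rpl21 and Rps20 lacked RXR in NCs, Rpl9, Rpl17, Rpl22 and Rps27a lacked H3.3, and Rps27l lacked FGFR1 in ESCs. H3.3 was missing at 66 and RXR in NCs at 65 of the 82 best sites, FGFR1 replicate 2 at 1. Fau, whose product is cleaved to a ribosomal protein of the small subunit, has another kind of symbol, was not on the list and did have a member.

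Few members lay at regulators of the 2 cell states. There was 0 of 15 pluripotency factors, 0 of 16 immediate early factors, 0 of 17 retinoid receptors and enzymes, 0 of 16 genes of the FGF pathway, 0 of 3 Nr4a genes, 0 of 10 genes of H3.3 and its chaperones and 0 of 18 neural and mesodermal genes. These counts of 0 allow shares from 18.5% (18 genes) to 70.8% (3 genes), so a share like that of all genes was not excluded by them. Olfactory receptors had 0 of 1092 genes, which allows up to 0.337%. Only 54 of the 1092 had a promoter site in any list, so this limit rests mostly on genes without a promoter peak. The exceptions were Hoxd1 (1 of 39 Hox genes) and Crtc1, a coactivator of CREB (1 of 12 genes). At Hoxd1 FGFR1 had 7 summit fragments, RXR 16 and Nur77 12 in ESCs. In NCs FGFR1 had 13 and 20, RXR 11, Nur77 10 and H3.3 4, at percentile 0.30 of its list. Hoxd1 was thus a member by a narrow margin. Crtc1 had 18, 21 and 17 summit fragments in ESCs, and in NCs FGFR1 had 22 and 39, RXR 12, Nur77 15 and H3.3 14, with no percentile under 44.7.

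Members were found on all of chromosomes 1 to 19, from 0.73% of the promoter sites on chromosome 14 to 2.77% on chromosome 8. On X there were 0 among 478 promoter sites, which allows up to 0.769%, against 1.57% (interval 1.43 to 1.73) on the autosomes. Sites in 7 lists were also fewer on X (3 sites, 0.63%, against 3.23%). In 7 of the 8 lists a smaller share of the X promoter sites had a peak than of the autosomal ones, for instance 4.39% against 13.3% for H3.3, while FGFR1 replicate 2 had 63.2% against 44.0%. Every list also held peaks on chromosome Y. Whether the number of X copies in this line played a part was not tested.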

How the data were processed

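The authors aligned reads to mm10 with Bowtie 1.0, kept reads with a single place and called peaks per library with MACS2 2.0 at p of 1e-05, with no pooling and no control library named. The deposited fold is the ratio of summit pileup to local background with a pseudocount in both, the deposited −log10 p and −log10 q belong to the summit, and the score deposited beside them is the −log10 p times 10, cut to a whole number. From fold and −log10 p, summit fragments and background were solved (100% of peaks within 0.002), which was checked on simulated peaks. The strongest peak per list stood for a site. Positions are 1-based in GRCm38 (the assembly behind mm10), sequences come from RefSeq's copy of it, and starts from GENCODE M21 (139486 transcripts). Repeats are its soft-masked bases. Copies were sought with minimap2 2.31-r1302. Shares carry exact Clopper-Pearson 95% intervals, medians order-statistic intervals, and both cover counting error only. Neighbouring sites are not independent. Groups were read from the titles. With 1 library in most groups no test was run and no p-value computed.

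The members, the gene lists and the words were chosen with earlier results of these data known. Named genes were the 10 members of highest median percentile, the strongest of each list, the 2 highest and 2 lowest RA over LIF ratios per factor, all members of the short regulator lists, the leading member of each other list, and sites at the limits of the rule. Printed sequences were taken from members ranking high among those with the word, none of them on chromosome 18, and Cep295 and Rab3gap2 have the most bases in words among stretches free of exons. Alternatives covered thresholds, peak numbers, merging, windows, scales and replicates.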

Additional observations from a re-analysis of the deposited data

Results flagged for a closer look

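Outside the chromosomes covered by the rule, peaks were also listed on the mitochondrial genome and on chromosome Y. After merging, 1 site there carried a peak in all 8 lists. It spanned 1848 to 4460 on the mitochondrial genome, with −log10 p from 10.0 to 151 over its peaks, and none on Y did. It stands out because no comparison above used these peaks and there is no control library to set beside them.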

How the results depend on the processing

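No paired analysis was possible because the groups share fewer than 2 replicate numbers. Of 61 recomputed values, 34 stayed within 1.5 times (counts) or within the interval of the value above, 25 moved and 2 changed sign. The count of 411 fell to 84 with −log10 p of at least 10, to 89 with an equal number of peaks per list and to 254 where all lists had to share 1 base. It was 412 to 499 when an FGFR1 replicate was left out. With equal numbers of peaks, the ratio was 0.32 for FGFR1 and 0.86 for RXR, the share with 1 of the 4 words 44.9%, with summits within 100 bp 24.7%, and the share of genes 0.456%. With a shared base the last 2 were 27.2% and 1.31%. With the deposited fold the ratios were 0.61 for FGFR1, −0.10 for RXR and 0.15 for Nur77, and centred on all promoter sites 0.031, −0.052 and 0. Summing peaks gave 0.62 for RXR. Leaving out a replicate gave 0.20 to 0.73 for FGFR1, 30.3% to 35.4% for words, 17.5% to 36.5% for summits and 2.16% to 2.36% for genes. The word share was 50.9% in 200 bp, and the summit share 3.65% at 50 bp. Chosen after seeing the data, windows round single summits gave 26.5%, 28.7% and 26.3% for FGFR1, RXR and Nur77 in ESCs and 28.0% for FGFR1 replicate 2. The cause of these changes was not tested. At 9 to 27 fragments per typical summit, absence from a list does not show absence of binding.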
